A study of Mus musculus with 9 samples.

Results

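Kirrel3os, Gm45955 and Gm33561 are 3 long noncoding RNA genes that lie inside the protein-coding gene Kirrel3 on mouse chromosome 9. They were taken by name from a table of 10706 gene names measured in pancreatic islets, the clusters of hormone-secreting cells of the pancreas, and they are described here through their summed levels and through the 18 transcript lines the table gives for them. They were selected on their higher FPKM in islets of pregnant than of virgin mice, seen in a fit that took the replicate number into account as a block, so the difference between the groups is a description of these genes and is not tested. Islets were isolated from female mice that were either virgin (5 libraries, numbered 1 to 5) or in mid-gestation, at the gestational day (GD) labelled GD14.5 (4 libraries, numbered 1 to 4). Polyadenylated RNA was selected from total RNA with oligo(dT) and sequenced in bulk. The labels name no strain, age or treatment and do not say whether a library holds islets of 1 mouse or of several, so the spread given below is that between these libraries, which may be technical.

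Long noncoding RNAs are transcripts, often spliced and polyadenylated, that do not encode a known protein. Many lie within or opposite a coding gene and share its chromatin domain, and some act on the gene they overlap while others have no known function. Kirrel3 (also called Neph2) encodes a membrane protein of the immunoglobulin superfamily related to nephrin, which holds cells together by binding copies of itself and is best known from the formation of specific synapses in the brain. Its relative Kirrel2 is a surface protein of beta cells, the insulin-secreting cells of the islet.

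Kirrel3 is read from the plus strand and spans 34485853 to 35040807 on chromosome 9 (RefSeq, GRCm38.p6). Gm33561 (34823247 to 34855194, 31948 bases) and Gm45955 (34860101 to 34870472, 10372 bases) follow each other with a gap of 4906 bases. Both lie within a stretch of 394308 bases between Kirrel3 exons (GENCODE M21, GRCm38), so they are intronic to Kirrel3. Kirrel3os (34918230 to 35007695, 89466 bases) begins 47757 bases further on and spans part of the exon-rich end of Kirrel3, where it overlaps 5 blocks of Kirrel3 exons, the last of them only at its edge. RefSeq gives Kirrel3os and Gm33561 on the minus strand, opposite to Kirrel3. The shorter Kirrel3os model of GENCODE (34918233 to 34929509) has 4 exons and shares 0 bases with Kirrel3 exons. The map of the locus shows these positions.

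**Figure D1:**
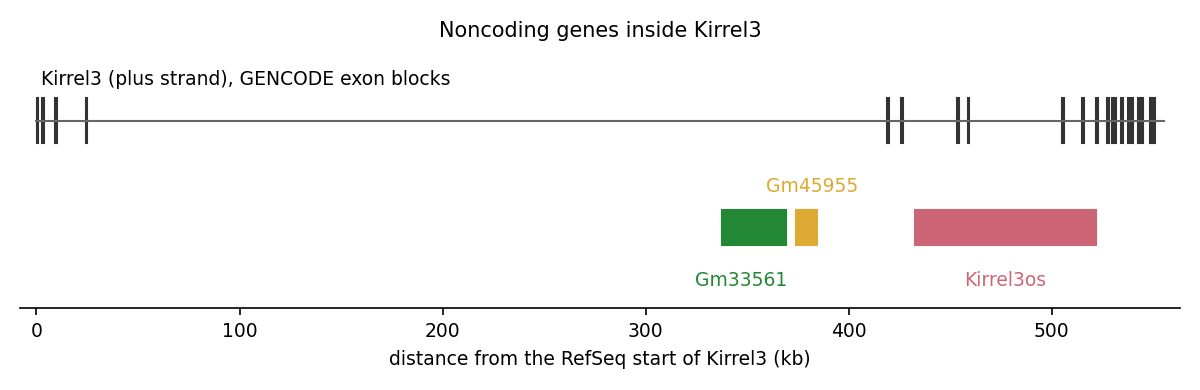
Positions of the 3 noncoding genes (coloured bars) within Kirrel3 (line, with exon blocks as vertical bars), by distance in kb from the RefSeq start of Kirrel3. Gm33561 and Gm45955 lie side by side in a long gap between exons, from 337.4 to 384.6 kb, and Kirrel3os spans 432.4 to 521.8 kb, across several exons.

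The RefSeq promoter table holds 5 windows for 2 of the 3 genes, each with 250 bases before and 50 bases after an annotated start. No window is given for Gm45955. The windows of the most distal start and of the next one are shown for both genes, because the levels of their RNAs moved together in these libraries and the starts lie in different parts of Kirrel3. A further start of Gm33561 lies only 2 bases from the second. The letters run 5′ to 3′ on the minus strand of GRCm38.p6, at chr9:35007646-35007945, chr9:35000161-35000460, chr9:34855145-34855444 and chr9:34848955-34849254, and capitals mark a motif match.
Kirrel3os start at 35007695: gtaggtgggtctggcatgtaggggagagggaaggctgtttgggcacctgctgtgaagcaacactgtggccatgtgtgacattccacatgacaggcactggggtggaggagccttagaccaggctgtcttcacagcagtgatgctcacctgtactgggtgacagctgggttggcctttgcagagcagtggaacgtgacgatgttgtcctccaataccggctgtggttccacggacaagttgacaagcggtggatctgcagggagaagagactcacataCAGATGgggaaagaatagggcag
Kirrel3os start at 35000210: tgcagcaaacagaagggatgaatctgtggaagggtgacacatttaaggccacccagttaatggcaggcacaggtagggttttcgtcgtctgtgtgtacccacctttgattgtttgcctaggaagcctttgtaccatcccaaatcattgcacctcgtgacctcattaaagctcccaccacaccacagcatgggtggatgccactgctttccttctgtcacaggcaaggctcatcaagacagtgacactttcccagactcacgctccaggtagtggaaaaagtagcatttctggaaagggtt
Gm33561 start at 34855194: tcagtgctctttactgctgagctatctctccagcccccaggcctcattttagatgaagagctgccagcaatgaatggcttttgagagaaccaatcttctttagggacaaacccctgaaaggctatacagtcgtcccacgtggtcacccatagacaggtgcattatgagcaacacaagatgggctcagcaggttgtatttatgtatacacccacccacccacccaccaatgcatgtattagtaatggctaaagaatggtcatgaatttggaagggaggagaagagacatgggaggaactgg
Gm33561 start at 34849004: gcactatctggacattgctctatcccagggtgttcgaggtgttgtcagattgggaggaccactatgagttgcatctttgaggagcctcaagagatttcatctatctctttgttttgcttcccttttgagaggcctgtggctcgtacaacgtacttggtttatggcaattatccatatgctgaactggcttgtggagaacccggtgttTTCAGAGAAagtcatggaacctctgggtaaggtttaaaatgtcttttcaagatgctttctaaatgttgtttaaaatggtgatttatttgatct
Motifs of 5 factors were searched on both strands, TTCNNNGAA (STAT5, the factor that carries prolactin signals to the nucleus), TGACGTCA (CREB), TATAAA (the TATA box), CAGATG (an E-box of NeuroD1) and TGTTTAC (FOXA). The second Gm33561 window holds TTCAGAGAA, a match to the STAT5 motif, at position −43 from the start. That motif is in 8.30% of the 32851 promoter windows of the table. The first Kirrel3os window holds CAGATG at base 28 of the transcript, a word found in 17.15% of windows. The other windows shown hold none of the 5 motifs, and no factor binding was measured here. In the first Kirrel3os window, 106 bases are also a Kirrel3 exon read from the other strand. Its GC content is 55.7%, against 49.7% in the second Kirrel3os window, 47.7% and 42.0% in the Gm33561 windows, and a median of 52.7% over all windows.

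Levels are in FPKM, fragments per transcript length and per library total, summed over the lines of a gene. The depth of the libraries is unknown. Their FPKM, summed over the listed names only, ranged from 5415.3 to 20530.6, with virgin 4, virgin 5 and GD14.5 replicate 4 the highest. These were also the 2 virgin libraries and the GD14.5 library with the highest level of each of the 3 genes, and the part of library scaling in the levels was not tested. Of 39 marker genes of islet, acinar, ductal, endothelial, stromal, immune and neural cells, 3 have a line in the table (Sox9, Col1a1 and Col3a1) and none of these marks islet cells, so the labelled tissue could not be checked from markers. Col3a1, a collagen of stromal cells, was listed at 16.23 FPKM in virgin 2, 8.46 in GD14.5 replicate 2 and 8.38 in GD14.5 replicate 4, and at 0 in the other 6 libraries, a pattern unlike that of the 3 genes. Col1a1 was listed at 0 in all 9 libraries, and Sox9 at no more than 0.01 FPKM.

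Kirrel3os, the gene opposite the end of Kirrel3, was at 1.14, 1.43, 0.74, 5.74 and 5.19 FPKM in virgin libraries 1 to 5. At GD14.5 it was at 5.42, 6.87, 5.02 and 20.69 FPKM in libraries 1 to 4. Virgin 1 to 3 were low, virgin 4 and 5 lay within the range of the GD14.5 libraries, and GD14.5 replicate 4 stood above all others, so the groups overlapped. The means were 2.85 ± 2.41 FPKM (SD, n = 5) and 9.5 ± 7.5 (SD, n = 4), a ratio of 3.34.

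Gm45955, the smallest of the 3 genes, was at 0.99, 1.69, 1.02, 6.44 and 5.65 FPKM in the virgin libraries and at 5.82, 7.46, 5.25 and 16.08 at GD14.5. Gm33561, its upstream neighbour on the map, was at 1.02, 1.84, 0.94, 6.99 and 5.36 FPKM and at 6.03, 7.90, 5.43 and 16.26. The order of the libraries was nearly that of Kirrel3os, with the same 3 low virgin libraries and the same highest library. The ratio of the group means was 2.74 for Gm45955 and 2.76 for Gm33561, and for none of the 3 genes were the groups apart in FPKM, where 0.421% of tested loci had every GD14.5 library above every virgin library. The highest library stood above the lowest by 28.0 times for Kirrel3os, 16.2 times for Gm45955 and 17.3 times for Gm33561. In bulk RNA, more cells that make a transcript and more transcript per cell cannot be told apart.

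**Figure D2:**
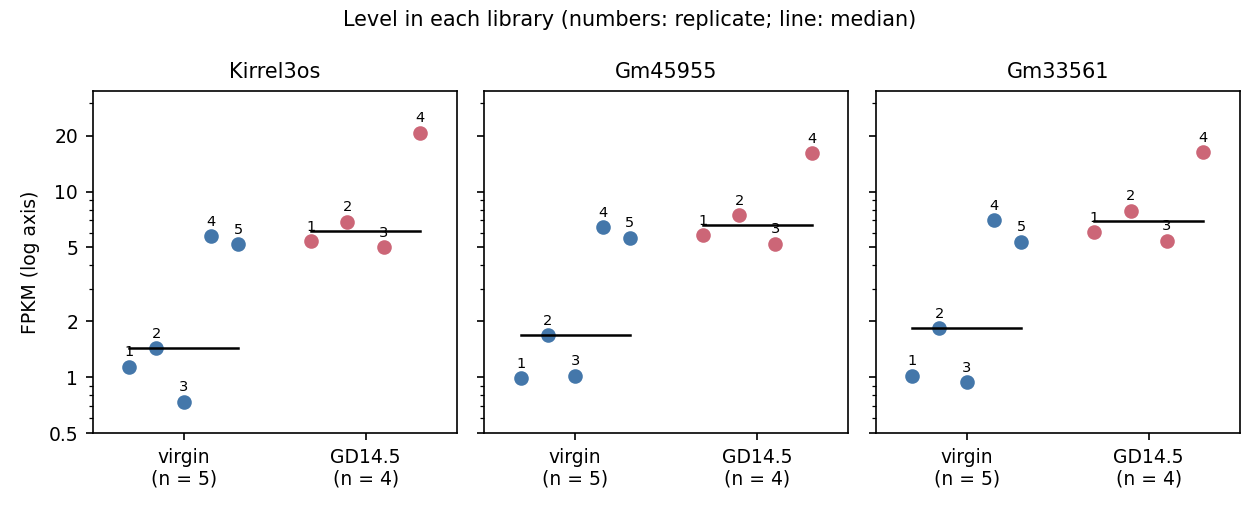
FPKM (log axis) of Kirrel3os, Gm45955 and Gm33561 in each of 5 virgin and 4 GD14.5 libraries, with the replicate number at each point and a line at the group median. In each panel virgin 4 and 5 reach the lower GD14.5 libraries, and GD14.5 replicate 4 is highest, at 20.69, 16.08 and 16.26 FPKM.

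Set against their own library, the 3 genes stood higher in rank at GD14.5. Of 39 marker genes looked up, 3 have a line, so a rank here is among the listed loci and not among all genes of the islet. Among the 2377 loci with a mean of at least 0.5 FPKM, Kirrel3os stood above 42.1% to 82.0% of loci in the virgin libraries and above 93.0% to 97.2% at GD14.5. Gm45955 stood above 55.8% to 84.2% and then 93.6% to 96.0%, and Gm33561 above 52.1% to 85.4% and then 93.7% to 96.1%. On this scale, which does not depend on the scaling of a library, the groups did not overlap for any of the 3 genes, and GD14.5 lay above virgin without overlap at 2.65% of all loci tested. The rank comes from the same contrast that chose the genes and is given as a description.

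Same-numbered libraries gave differences of one sign, which the choice of the genes in a fit blocked on that number favours. The labels state no pairing, and the share of all loci with one sign was not determined. GD14.5 was above virgin at Kirrel3os by 4.75, 4.8, 6.78 and 3.6 times for numbers 1 to 4. At Gm45955 the ratios were 5.88, 4.41, 5.15 and 2.50, and at Gm33561 they were 5.91, 4.29, 5.78 and 2.33. Number 4, which joins libraries with high summed FPKM, gave the smallest ratio for each gene. Among the 6 libraries of lower summed FPKM, the groups were apart, with 0.74 to 1.43 FPKM in 3 virgin and 5.02 to 6.87 in 3 GD14.5 libraries at Kirrel3os, 0.99 to 1.69 and 5.25 to 7.46 at Gm45955, and 0.94 to 1.84 and 5.43 to 7.90 at Gm33561. These 6 were chosen after the data were seen and leave out the 2 virgin libraries with the highest levels of the 3 genes. The share of all loci with groups apart among these 6 was not determined, so nothing is read from it. Of the other 3 libraries, the single GD14.5 library was above the mean of the 2 virgin ones by 3.79, 2.66 and 2.63 times.

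A limma fit across all 2377 loci on log2(FPKM + 0.5), a scale that understates the change of low levels, gave log2 fold changes of 1.65 ± 0.56 for Kirrel3os, 1.51 ± 0.54 for Gm45955 and 1.54 ± 0.55 for Gm33561 (GD14.5 over virgin, SE). The median of all loci was −0.30, with 5% of loci below −0.67 and 5% above 0.26. At a limma adjusted p under 0.05, 0 of the 3 genes were called, where 0.168% of all loci were called higher. At an unadjusted p under 0.05 all 3 were higher, as were 1.09% of all loci (26 higher and 34 lower). With the replicate number as a block the fold changes were 1.93 ± 0.20, 1.78 ± 0.22 and 1.79 ± 0.22 (SE), and 3 of 3 were called higher, where 0.968% of all loci were. Virgin 5 has no GD14.5 library of its number and so adds nothing to the blocked fold changes, which equal the unblocked ones without virgin 5. The blocked fit had put the genes forward, so nothing is read from these counts. On libraries scaled to equal medians, 3 of 3 were called without the block, where 1.05% of all loci were called higher. Without virgin 4, virgin 5 and GD14.5 replicate 4, 3 of 3 were also called, where 0.547% of all loci were called higher. Both fits use values of the libraries that chose the genes, so these counts are no separate test and nothing is read from them. Without GD14.5 replicate 4 the unblocked log2 fold changes were 1.21, 1.18 and 1.22.

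The levels of the 3 genes lay close to each other in every library. Genes chosen for one difference between the same groups share part of such a pattern by that choice, so their ratios are given as a description, with no test. Gm45955 was at 0.918 to 1.09 times the level of Gm33561 in the 9 libraries. Per library the ratio was 0.971, 0.918, 1.09, 0.921 and 1.05 in virgin 1 to 5 and 0.965, 0.944, 0.967 and 0.989 at GD14.5. Kirrel3os was at 0.725 to 1.29 times the level of Gm45955 and at 0.777 to 1.27 times that of Gm33561. Its ratio to Gm45955 was 1.15, 0.846, 0.725, 0.891 and 0.919 in virgin 1 to 5 and 0.931, 0.921, 0.956 and 1.29 at GD14.5. GD14.5 replicate 4, the library with the highest level, and virgin 1 were the only libraries in which Kirrel3os was above the other 2 genes.

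By group, the ratios are given as log2 of (FPKM + 0.5) over (FPKM + 0.5). For Kirrel3os to Gm45955 the mean was −0.12 ± 0.16 over virgin (SD, n = 5) and 0.02 ± 0.22 over GD14.5 libraries (SD, n = 4), a difference of 0.14. For Kirrel3os to Gm33561 the difference was 0.11, and for Gm45955 to Gm33561 it was −0.03. In all 3 ratios the groups overlapped. Without GD14.5 replicate 4 the differences of Kirrel3os were 0.03 to Gm45955 and −0.01 to Gm33561, and without virgin 1 they were 0.21 and 0.18.

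The spread of such a log2 ratio over the 9 libraries puts these values beside the rest of the table. It was 0.0664 (SD) for Gm45955 with Gm33561, the smallest that either gene had with any of the 2376 other loci, where the median was 1.09 for Gm45955 and 1.11 for Gm33561. Kirrel3os had 0.192 with Gm45955 and 0.2 with Gm33561, the smallest and the third smallest of its values, against a median of 1.2. Between them stood Gm14636, a long noncoding RNA gene on chromosome X, at 0.197. These are descriptions across loci, which share libraries and their scaling. FPKM divides by transcript length, so similar levels are not similar read numbers.

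**Figure D3:**
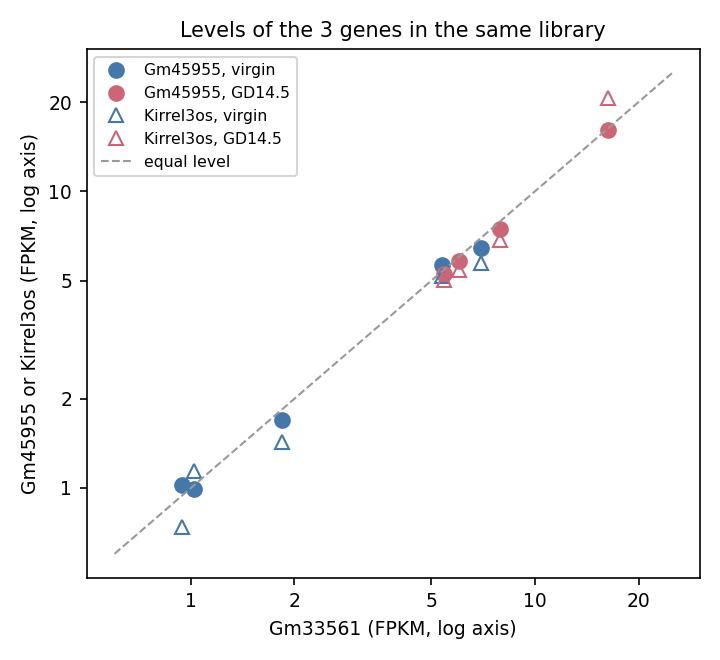
FPKM of Gm45955 (filled circles) and Kirrel3os (open triangles) against Gm33561 in the same library, log axes, 5 virgin (blue) and 4 GD14.5 (red) libraries; the dashed line marks equal levels. The circles lie at 0.918 to 1.09 times the dashed line, and the triangles at 0.777 to 1.27 times.

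Within Kirrel3os, the transcript lines differed in how their levels stood in the groups. The table gives 10 lines for Kirrel3os, 5 for Gm45955 and 3 for Gm33561, without transcript identifiers, and they are numbered here from the highest mean over the 9 libraries. RefSeq lists 7, 4 and 3 transcripts for these genes, and which line is which transcript cannot be told. The sources used here do not say how reads shared by overlapping transcripts were divided, so the values of single lines are less certain than their sums. Of the 18 lines, 8 had a mean of at least 0.5 FPKM, 3 of Kirrel3os, 3 of Gm45955 and 2 of Gm33561.

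Line 1 of Kirrel3os was at 0.51, 0.92, 0.51, 4.02 and 3.39 FPKM in the virgin libraries and at 2.37, 2.09, 1.62 and 0.41 at GD14.5. The groups overlapped widely, and the library with the highest Kirrel3os level had the lowest value of this line. Its mean was 1.87 ± 1.70 FPKM (SD, n = 5) and 1.62 ± 0.866 (SD, n = 4), with a log2 fold change of 0.03 ± 0.50 (SE). Line 2 was at 0.28, 0.14, 0.08, 1.00 and 0.78 FPKM and at 1.57, 2.4, 1.16 and 7.63 at GD14.5. Line 3 was at 0, 0.17, 0.08, 0.21 and 0.37 FPKM and at 0.62, 1.43, 1.34 and 7.93. In lines 2 and 3 every GD14.5 library was above every virgin library, as at 0.549% of all 2548 lines tested, with log2 fold changes of 1.75 ± 0.45 and 1.88 ± 0.45 (SE). Lines 2 to 10 together averaged 0.978 ± 0.729 FPKM over the virgin libraries (SD, n = 5) and 7.88 ± 8.3 over the GD14.5 ones (SD, n = 4). The ratio of these means was 8.05. This sum leaves out the line with a log2 fold change of 0.03, so a ratio above the 3.34 of the whole gene follows from that. In GD14.5 replicate 4 lines 2 to 10 stood at 20.28 FPKM and in the other 3 at 3.05 to 4.78, while the virgin libraries ranged from 0.23 to 1.80. The share of all loci with groups apart once their leading line is left out was not determined, so nothing is read from it.

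The share of line 1 in the level of Kirrel3os was 44.7%, 64.3%, 68.9%, 70.0% and 65.3% in virgin 1 to 5. At GD14.5 it was 43.7%, 30.4%, 32.3% and 2.0%. Every GD14.5 library was below every virgin library, narrowly so for GD14.5 replicate 1 and virgin 1, and the means were 62.7% ± 10.3 (SD, n = 5) and 27.1% ± 17.7 (SD, n = 4). The sum that is the base of this share is the value that chose the gene, so no test is given. Among 1427 loci with at least 2 lines and a level above 0 in every library, the share of the leading line was lower at GD14.5 without overlap at 1.12% and apart in either direction at 2.45%, and 3 had a larger fall than Kirrel3os. The difference of the means was −35.6 percentage points, where the median of those loci was 0 and 5% of them were below −10.9. Without virgin 4, virgin 5 and GD14.5 replicate 4 it was −23.9.

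Line 2 made up 9.8% to 24.6% of Kirrel3os in virgin islets and 23.1% to 36.9% at GD14.5, and line 3 made up 0% to 11.9% and 11.4% to 38.3%, so for both the groups met at their edges. The share of line 4, below the minimum for testing, was 4.4% ± 1.02 in virgin (SD, n = 5) and 6.7% ± 1.36 in GD14.5 libraries (SD, n = 4), and that of line 8, also below it, was 1.2% ± 0.205 and 0.662% ± 0.158. With line 1, these were the 3 of 10 Kirrel3os lines whose shares did not overlap between the groups. That was the case for 1.88% of the 5166 lines of those 1427 loci. Line 8 was at 0.01 to 0.14 FPKM in values rounded to 2 decimals. The gap in its share, 0.877% against 0.797% at the nearest, is no wider than rounding can make. Shares within a gene depend on each other, so the 3 are not separate results. Lines 5 to 10 of Kirrel3os were at mean levels of 0.0167 to 0.359 FPKM.

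The leading lines of Gm45955 and Gm33561 had similar shares in both groups. Line 1 of Gm45955 held 66.0% to 78.4% in virgin islets and 65.3% to 74.3% at GD14.5. Line 1 of Gm33561 held 52.1% to 59.8% and 57.0% to 63.2%. Their FPKM went from 2.17 ± 1.76 to 5.92 ± 3.23 and from 1.90 ± 1.68 to 5.34 ± 3.35 (SD, n = 5 and n = 4), with log2 fold changes of 1.40 ± 0.51 and 1.43 ± 0.52 (SE). Lines 2 and 3 of Gm45955 had lower log2 fold changes, 0.88 ± 0.36 and 0.85 ± 0.43 (SE). Lines 2 and 3 of Gm33561 traded places between libraries. Line 2 was at 7.6% in virgin 2 and 2.1% in virgin 5 and between 34.1% and 41.2% in the other 7 libraries, and line 3 was at 33.2% and 38.8% in those 2 libraries and at 0% to 11.7% in the others.

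Of the 8 lines tested, limma called 0 without the block (0.118% of all lines were called higher) and 7 with it (1.1% of all lines). At an unadjusted p under 0.05 without the block, 6 of the 8 were higher, as were 1.3% of all lines (33 higher and 30 lower). The line left out of the 7 was line 1 of Kirrel3os, at a blocked log2 fold change of 0.28 ± 0.51 (SE). As these are lines of genes chosen for the same difference, the counts are given without a reading.

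**Figure D4:**
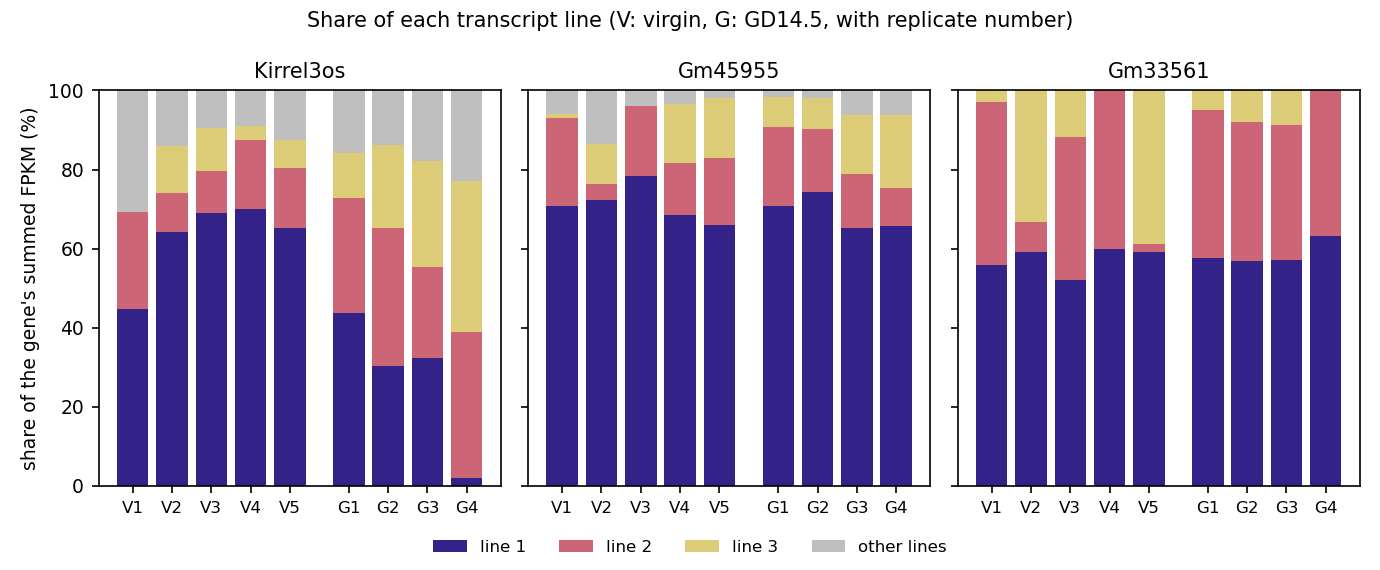
Share (%) of transcript lines 1, 2 and 3 and of all other lines in the summed FPKM of each gene, for virgin (V) and GD14.5 (G) libraries. Line 1 of Kirrel3os lies between 44.7% and 70.0% in virgin libraries and between 2.0% and 43.7% at GD14.5, while line 1 of Gm45955 and of Gm33561 spans similar heights in both groups.

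The host gene Kirrel3 has 1 line in the table, whose transcript is not identified. Whether its reads come from spliced or unspliced RNA cannot be told from the table. Without a strand setting, its reads also cannot be told apart from those of opposite-strand genes such as Kirrel3os. It was at 0.11, 0.07, 0.04, 0 and 0 FPKM in virgin 1 to 5 and at 0.34, 0.17, 0.28 and 0.56 at GD14.5. Its lowest GD14.5 value exceeded its highest virgin value, at levels under the minimum of 0.5 FPKM for testing (two-sided exact permutation p = 0.00794, the smallest possible and not adjusted over loci). The same permutation test on each other name within 1 Mb of Kirrel3 gave p of at least 0.0952, also not adjusted. With no minimum, limma gave Kirrel3 a log2 fold change of 0.61 ± 0.16 (SE) and an adjusted p of 0.822 over 10284 loci, so the difference did not pass the threshold, which 0.0292% of those loci did, and 0.331% of those loci had GD14.5 above virgin without overlap. Virgin 4 and 5, which had the highest virgin levels of the 3 noncoding genes, listed Kirrel3 at 0. The mean of this Kirrel3 line at GD14.5 was 0.338 ± 0.164 FPKM (SD, n = 4), where the 3 noncoding genes stood at 8.65 to 9.50 FPKM. GENCODE gives 9 transcripts for Kirrel3, so 1 line need not hold the level of the whole gene.

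Around Kirrel3, within 1 Mb on either side, the table holds 9 further names. Only 4930581F22Rik, a long noncoding RNA gene beyond the end of Kirrel3 (35116728 to 35130922), reached the minimum. Its mean was 0.582 ± 0.277 FPKM over virgin (SD, n = 5) and 0.448 ± 0.0929 over GD14.5 libraries (SD, n = 4), with a log2 fold change of −0.16 ± 0.31 (SE; 95% interval −0.80 to 0.47; limma adjusted p = 0.834) that lay within the libraries' spread. The other 8 names, among them LOC115487216, Gm39318 and Gm33838, stayed at or under 0.29 FPKM in every library, and their groups overlapped. With no minimum, limma called 0 of the 10 names including Kirrel3, and 1 of them, Kirrel3 itself, was higher at an unadjusted p under 0.05, as were 1.29% of all loci.

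Of 19 genes of Kirrel and nephrin adhesion, the family itself and proteins of its adhesion complexes, 2 have a line in the table, Kirrel3 and Nphs1, the gene of nephrin, and 0 reached the minimum. Nphs1 was listed at 0 in all 9 libraries. Nphs1os, the noncoding RNA gene opposite Nphs1, was at 0.03 to 0.23 FPKM in virgin and at 0.07 to 0.15 at GD14.5. Kirrel, Kirrel2 and the other partners are not analysed here.

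Other loci followed the 3 genes over the 9 libraries. Likeness was measured by Pearson's r between a locus and the mean of the 3 genes on log2(FPKM + 0.5) less the median of the library, and is given as a description. Each gene had an r of 0.989 to 0.997 with the mean of the other 2. The 5 loci most like them were Gm14636 (chromosome X, r = 0.978), 1300002E11Rik (chromosome 16, r = 0.976), B830017H08Rik (chromosome 16, r = 0.967), Gm14320 (chromosome 2, r = 0.957) and 4930594M22Rik (chromosome 14, r = 0.957), all long noncoding RNA genes. Few coding genes looked up here have a line (3 of 39 cell type markers). The share of noncoding genes among the loci was not determined, so nothing is read from the type of these genes. Of 2374 other loci, 15 had an r of at least 0.9. Gm14636 averaged 1.78 ± 1.43 FPKM over virgin (SD, n = 5) and 6.26 ± 5.02 over GD14.5 libraries (SD, n = 4), and 1300002E11Rik at 10.1 ± 7.53 and 23.9 ± 17.7. Part of this likeness is the shared difference between the groups.

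With the mean of each group removed, the 3 genes had an r of 0.944 to 0.984 with each other's mean, and 38 other loci reached 0.9. The 5 most alike were then the noncoding genes Gm52201 (chromosome 15, r = 0.991), BC002059 (chromosome 17, r = 0.974), Gm16701 (chromosome 1, r = 0.961) and Gm36839 (chromosome 13, r = 0.956) and the line at Gsr, the gene of glutathione reductase (chromosome 8, r = 0.957). None of these 5 was among the 5 of the first ranking, and their log2 fold changes were between −0.33 and 0 with SE of 0.44 to 0.59, where limma called 0 of the 5.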

How the data were processed

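Bulk RNA sequencing of islets gave 5 virgin and 4 GD14.5 libraries. The authors deposited FPKM rounded to 2 decimals, 1 line per transcript under a gene name. GRCm38.p6 is the build named, per the submitters' processing notes, and RNA was enriched on oligo(dT) beads, per the labels' protocols. Aligner, quantifier, annotation and use of strand were not given in the sources used here. Without a strand setting, reads of Kirrel3 and of its opposite-strand genes cannot be told apart. Of 26375 lines, 480 that mark copies on other sequences of the assembly were left out, and 10705 of 10706 names matched RefSeq (GRCm38.p6), which also gave positions and promoters.

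FPKM of one name were summed. Loci (2377) and lines (2548) with a mean of at least 0.5 FPKM were fitted by limma 3.58.1 (R 4.3.3) as log2(FPKM + 0.5) (variance trend, two-sided, Benjamini-Hochberg over all, threshold 0.05). The code was checked on simulated data with independent noise and library effects absent or shared by replicate number. That check does not show whether either fit suits these libraries. The 10 names within 1 Mb of Kirrel3, itself included and the 3 genes left aside, each had a two-sided exact permutation test, not adjusted. Planned tests of shares and of ratios between the 3 genes are not given, because the sums they rest on chose the genes. Deviations from group means of same-numbered libraries correlated at 0.49, 0.20, 0.28 and 0.59 across loci. All were above 0.1, so the replicate number was treated as a pairing, from the data and not from the labels. Some other pairs were as high, with 0.49 for virgin 5 and GD14.5 4, 0.25 for virgin 3 and GD14.5 2 and 0.23 for virgin 2 and GD14.5 1, so number 2 did not correlate best with itself. Virgin 5 has no partner of its number, so the blocked contrast rests on the other libraries. Named were the 3 genes and their lines, names within 1 Mb of Kirrel3, the adhesion list and the 5 loci most alike in each ranking. Genes and lists were chosen with earlier results of these data known. Alternatives were other pseudocounts (0.1 and 1), other minimums, equal library medians, the block, leaving out each library and, chosen after seeing the data, leaving out the 3 with the largest sums.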

Additional observations from a re-analysis of the deposited data

Results flagged for a closer look

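Dixon's criterion was applied to 20 sets of values (a measure within a group) and marked 1 library in each of 4 sets, where chance marks about 1 in 20. In GD14.5 replicate 4 the log2 ratio of Kirrel3os to Gm45955 was 0.35, against −0.11 to −0.06 in the other 3 GD14.5 libraries, and that of Kirrel3os to Gm33561 was 0.34, against −0.19 to −0.10. The same library has the lowest share of Kirrel3os line 1. The share of line 1 of Gm33561 was also highest in that library, at 63.22%, against 56.96% to 57.71%. In virgin replicate 1 the share of line 1 of Kirrel3os was 44.74%, against 64.34% to 70.03% in the other virgin libraries.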

How the results depend on the processing

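The log2 fold changes of the 3 genes kept their sign under every alternative run, which the choice of the genes for that sign favours. They ranged from 1.21 to 2.1 for Kirrel3os, 1.18 to 1.96 for Gm45955 and 1.22 to 2.00 for Gm33561. The share of all loci that keep their sign was not determined, so these ranges are a description. The count of loci called by limma, 4 as deposited, was 29 on equal library medians, 26 with the replicate block, 25 with both, 14 without virgin 4, virgin 5 and GD14.5 replicate 4, and 3 to 5 without any 1 library. The count of lines, 3 as deposited, was 29 with the block and 31 on equal medians. With the replicate block the ratios of Kirrel3os to Gm45955, Kirrel3os to Gm33561 and Gm45955 to Gm33561 differed by 0.15, 0.14 and −0.01, and the shares of line 1 by −34.9, −3.42 and 1.98 percentage points for Kirrel3os, Gm45955 and Gm33561. With 1 library left out, the difference of Kirrel3os to Gm45955 ranged from 0.03 to 0.21, that of Kirrel3os to Gm33561 from −0.01 to 0.18, and that of Gm45955 to Gm33561 from −0.05 to −0.01. The share of Kirrel3os line 1 differed by −41.1 to −27.2 points. Without virgin 4, virgin 5 and GD14.5 replicate 4 that share differed by −23.9 points and the ratio of Kirrel3os to Gm33561 by −0.02. The cause of these shifts was not tested. Of the names within 1 Mb of Kirrel3 other than the 3 genes, limma called 0 under each alternative, with 1 name tested in most, 10 with no minimum and 0 at a minimum of 1 FPKM. The depth is unknown, so the counting error of low lines could not be given.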
